A study of Mus musculus with 12 samples.

Results

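Slc1a2 encodes GLT-1 (EAAT2), a sodium-dependent glutamate transporter that astrocytes use to clear glutamate from synapses. The regions described here are the places on Slc1a2 RNA where a small RNA was found joined to it in adult mouse forebrain. They were taken by 1 rule, the gene symbol Slc1a2 in the authors' annotation of each peak, and number 743 of 250567 peaks over 4 peak lists. The gene was selected on its number of peaks in these same lists, so its counts, shares and scores are given as a description and are not tested.

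Argonaute 2 (Ago2) was pulled down from cross-linked forebrain of C57BL/6 mice, and each small RNA was ligated to the RNA it lay on, so that a chimeric read names both. The anti-Ago2 antibody was applied to whole forebrain in 7 libraries, of which replicates 1 to 4 were pooled into 1 peak list (reps 1-4) and replicates 5 to 7 into another (reps 5-7). In 3 libraries an anti-myc antibody was applied to forebrain in which a tagged Ago2 (Eif2c2) transgene at ROSA26 had been switched on by Camk2a-CreERT2, which limits the tag to cells where the Camk2a promoter was active, chiefly excitatory neurons. Control IgG was used in 2 libraries. The labels give every sample the same treatment, 2 mg of tamoxifen daily for 5 days, then 14 to 21 days of waiting and harvest at 10 to 12 weeks of age; they do not say whether the mice behind the anti-Ago2 and IgG libraries had the transgene. The excitatory list therefore differs from the forebrain lists in antibody and in the Ago2 protein as well as in cell type, and these cannot be told apart.

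A microRNA (miRNA) bound by Ago2 finds its targets mainly by pairing of its bases 2 to 8, the seed, with sites that lie most often in the 3' UTR, and it lowers the stability or translation of the RNA. miRNAs with the same seed form a family and can use the same site. GLT-1 carries out most of the glutamate uptake of the forebrain, and its messenger RNA has an unusually long 3' UTR.

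The 4 lists held 246180 peaks (reps 1-4), 3611 peaks (reps 5-7), 766 peaks (excitatory) and 10 peaks (IgG). The authors' settings asked for at least 3 reads from at least 2 libraries at each peak, and the lowest score in each list was 3. The median score was 4 in reps 1-4, in reps 5-7 and in the excitatory list, and 5.5 in IgG. A score is a whole number whose definition is not stated, and it is not scaled to the depth of the libraries. Because each list is a single pooled observation, there is no spread between replicates, and the 95% Wilson intervals below cover counting error only.

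The miRNAs that gave the highest scores on Slc1a2 belong to a few families, and their mature sequences are shown because the places of their peaks, described further on, can be read by family. They are printed 5′ to 3′ from the RefSeq miRNA annotation of GRCm38.p6, with the seed in capitals.
miR-30a-5p: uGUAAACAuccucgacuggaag
miR-30c-5p: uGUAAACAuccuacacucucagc
miR-30e-5p: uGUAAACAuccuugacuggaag
miR-26a-5p: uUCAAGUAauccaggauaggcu
miR-26b-5p: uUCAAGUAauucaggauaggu
miR-9-5p: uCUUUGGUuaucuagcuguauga
miR-9-3p: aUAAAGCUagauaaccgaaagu
miR-128-3p: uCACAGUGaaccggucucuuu
miR-153-3p: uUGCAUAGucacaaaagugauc
The miR-30 sequences share their seed and differ only behind it. Counted from the 5′ end, miR-30e-5p differs from miR-30a-5p by C13U alone, whereas miR-30c-5p differs by C13A, G14C, G18C, G19U and A20C and is longer. miR-26a-5p and miR-26b-5p likewise share a seed. miR-9-5p and miR-9-3p are the opposite arms of 1 hairpin and have different seeds. Of the 116 small RNA names with a Slc1a2 peak, 99 were matched to this annotation. Also among the names with high scores or recurring peaks were miR-30b-5p, miR-30d-5p, miR-124-3p and miR-145a-5p.

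In reps 1-4, Slc1a2 had 716 of 246180 peaks (0.291%, 95% Wilson interval 0.27% to 0.313%), in place 30 of the 11352 genes with a peak. In reps 5-7 it had 27 of 3611 peaks (0.748%, 0.514% to 1.09%) and was in place 4 of 1465 genes. In the excitatory list it had 0 of 766 peaks, which allows a share of up to 0.392%, and in IgG 0 of 10, which allows up to 30%. By share of peaks the order was thus reps 5-7, reps 1-4 and then the lists with no peak. The intervals of the forebrain lists do not overlap each other, but they treat peaks as independent, and many peaks overlap in common sites. The forebrain lists also differ in make-up, with 47.6% of all peaks in introns in reps 1-4 and 6.04% in reps 5-7. The limit set by 0 excitatory peaks lies above the reps 1-4 share and under the reps 5-7 share.

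Counting only peaks in coding sequence (CDS) and UTRs, which leaves out introns and non-coding RNA, Slc1a2 came first among all genes in both forebrain lists. It held 511 of 103963 such peaks in reps 1-4 (0.492%, 0.451% to 0.536%; 9672 genes) and 26 of 2383 in reps 5-7 (1.09%, 0.746% to 1.59%; 1333 genes). The gene with the next highest count in reps 1-4 was Camk2a, a calcium-dependent kinase of excitatory synapses, with 464 peaks there, 23 in reps 5-7 and 13 in the excitatory list. The median gene with any CDS or UTR peak in reps 1-4 had 5. By summed score of these peaks Slc1a2 was in place 3 in reps 1-4 (6620, or 0.704% of the total) and in place 4 in reps 5-7 (164, or 1.39%). Neither the counts nor the scores were set per length or per amount of RNA, and the amount of RNA was not measured here.

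Most Slc1a2 peaks were low, and a few were very high. In reps 1-4 scores ran from 3 to 366 with a median of 5, and 419 of 716 (58.5%) were at most 5. The highest 10 peaks held 25.6% of the gene's summed score of 7618, and 11 peaks reached 100. In reps 5-7 scores ran from 3 to 18 with a median of 5, and 16 of 27 (59.3%) were at most 5. Low peaks were more frequent over all genes: 71.2% of all reps 1-4 peaks and 69.6% of all reps 5-7 peaks were at most 5, with a median of 4 in each. Over CDS and UTR peaks alone in reps 1-4, the median was 5 both for Slc1a2 and for all genes. Peaks of at most 5 were still less frequent on Slc1a2, at 50.5% beside 59.5% over all genes. In reps 5-7 the same shares were 61.5% and 77.6%.

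On mm10 Slc1a2 lies on the plus strand of chromosome 2, and RefSeq (gene 20511, GRCm38.p6) places it at chr2:102658239-102790784, 132546 bases. All 743 peaks were on the plus strand, between bases 102658806 and 102790772. No peak of another gene or of the minus strand fell in that interval in any list. The excitatory list had 48 peaks on chromosome 2 and none in the interval.

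The 3' UTR held most of the peaks. In reps 1-4 it had 402 peaks (56.1%, 52.5% to 59.7%), introns had 205 (28.6%, 25.4% to 32%), the CDS had 98 (13.7%, 11.4% to 16.4%) and the 5' UTR had 11 (1.54%). In the whole reps 1-4 list 18.7% of peaks were in 3' UTRs, 47.6% in introns and 22.6% in the CDS. Among CDS and UTR peaks alone, 78.7% (74.9% to 82%) of the Slc1a2 peaks were in the 3' UTR, beside 44.2% over all genes. By summed score the 3' UTR led again, with 5220 (68.5%), followed by 1352 (17.7%) in the CDS and 998 (13.1%) in introns. In reps 5-7, 22 of 27 peaks (81.5%, 63.3% to 91.8%) were in the 3' UTR, 4 in the CDS and 1 in an intron. That made 84.6% (66.5% to 93.8%) of its CDS and UTR peaks, beside 50.9% over that whole list.

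The annotation files give the last exon a 3' UTR of 9250 bases (chr2:102781535-102790784) and, for some transcripts, one that ends after the first 209 bases (chr2:102781535-102781743). A further annotated 3' UTR stretch of 95 bases (chr2:102781463-102781557) starts upstream, over 72 bases that are also annotated as coding. The border of CDS and UTR here thus depends on the transcript. In the account that follows, UTR bases are counted from chr2:102781535. Of the 402 UTR peaks in reps 1-4, 401 start in this exon, and the other, a miR-9-5p peak with a score of 4, lies at chr2:102777836-102777853.

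The first 209 bases carried far more signal per base than the rest. In reps 1-4 they held 46 peaks of 32 small RNAs, or 220 peaks per kilobase, and the remaining 9041 bases held 355 peaks, or 39.3 per kilobase. The 46 peaks were 11.5% of the UTR peaks and held 39.2% of the UTR score (2043 of 5216). Their median score was 8.5, beside 5 in the rest, and the highest were 366 and 112 in turn. In reps 5-7, 12 of the 22 UTR peaks (54.5%) and 67.9% of the UTR score of 137 lay in the first 209 bases. Whether the short form of the 3' UTR is used in these cells was not tested. For comparison, the coding sequence held 57.6 peaks per kilobase in reps 1-4 and the whole 3' UTR 43.4. Single coding stretches were denser. The 72 coding bases just before this UTR held 153 per kilobase, and the first coding stretch held 114.

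**Figure D1:**
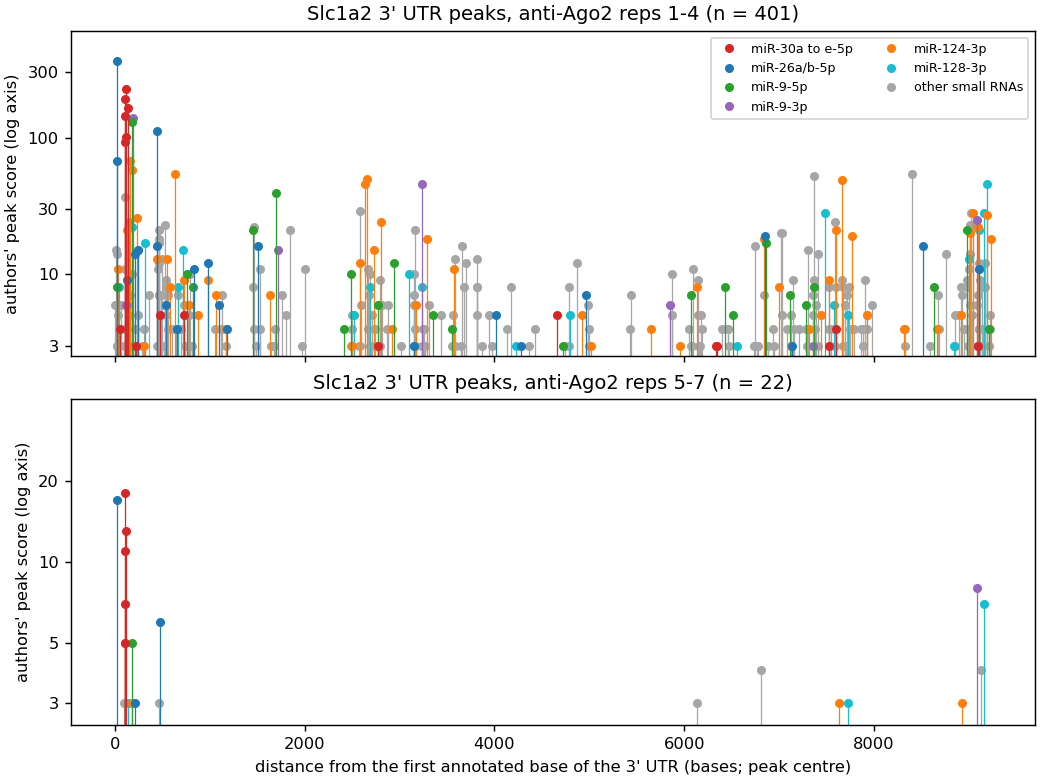
Score of each Slc1a2 3' UTR peak (log axis) against its distance from the first base of the 9250-base 3' UTR. Anti-Ago2 reps 1-4 are at the top (401 peaks) and reps 5-7 at the bottom (22 peaks), coloured by small RNA. The highest scores, up to 366 in reps 1-4 and 18 in reps 5-7, stand in the first 209 bases, and lower peaks run to the end of the UTR.

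The miR-30 family marked a narrow place in that stretch. The highest-scoring miR-30c-5p peak lay at UTR bases 116 to 119 with a score of 226 in reps 1-4 and 11 in reps 5-7. The miR-30e-5p peak lay at bases 108 to 119 with 192 and 18 in turn, and the miR-30a-5p peak at bases 110 to 118 with 145 and 7. miR-30b-5p scored 101 and 5 (bases 117 to 119 in reps 1-4), and miR-30d-5p scored 93 and 13 (bases 108 to 117). All 5 family members named a-5p to e-5p therefore had a peak here in both forebrain lists. A further miR-30c-5p peak of 165, at bases 127 to 145, was in reps 1-4 only.

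Set against all targets of the same miRNA in the CDS and UTRs, these peaks stood at or near the top. The miR-30c-5p, miR-30e-5p and miR-30b-5p peaks were the highest of 1291, 718 and 420 in reps 1-4, the miR-30a-5p peak was in place 2 of 570 and the miR-30d-5p peak in place 3 of 544. In reps 5-7 the miRNAs had few peaks. Those of miR-30a-5p, c, d and e on Slc1a2 were the highest of 7, 25, 7 and 9 in turn, and that of miR-30b-5p was in place 2 of 7. By number, miR-30 peaks were 18 of the 511 CDS and UTR peaks of Slc1a2 in reps 1-4 (3.52%, 2.24% to 5.5%), beside 3.41% over the other genes. By summed score they held 966, or 14.6%, beside 2.79% over the other genes, and 922 of the 966 came from the 6 peaks between UTR bases 91 and 150. That window was drawn around the miR-30 peaks described above, so the share inside it is a description only.

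Slc1a2 held 3.57% of all miR-30 score on CDS and UTRs in reps 1-4, in place 2 of 1440 genes after Kalrn, a synaptic guanine nucleotide exchange factor (969). In reps 5-7 it was in place 1 of 40 genes, with 54 of 257 (21%), ahead of Camk2n1 with 25. There miR-30 made up 5 of 26 CDS and UTR peaks (19.2%, 8.51% to 37.9%), beside 2.12% over the other genes, and all 5 lay between bases 91 and 150. The members of the family share their target site and most of their sequence, so that these 5 peaks are not independent observations.

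**Figure D2:**
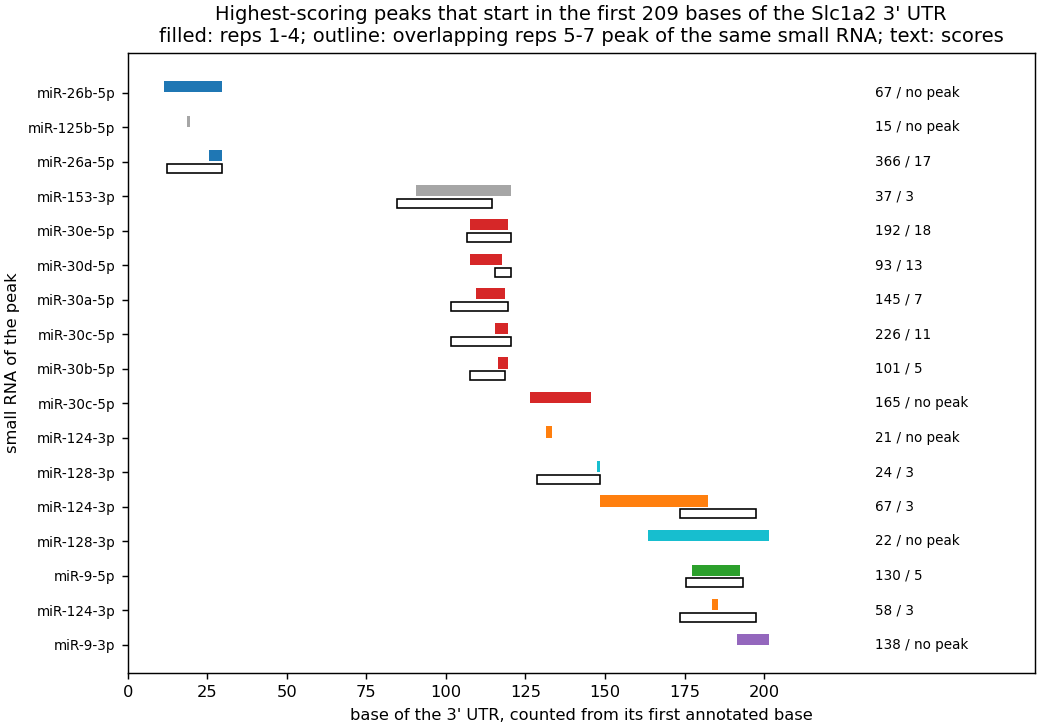
The 17 highest-scoring reps 1-4 peaks that start in the first 209 bases of the Slc1a2 3' UTR (filled bars, by base of the UTR), with overlapping reps 5-7 peaks of the same small RNA as outlines and the scores of both lists at the right. The miR-26 peaks lie at bases 12 to 29, the 5 miR-30 peaks found in both lists between bases 102 and 120, and the miR-9-5p and miR-9-3p peaks at bases 178 to 201; both miR-124-3p peaks at bases 149 to 185 overlap the same reps 5-7 peak.

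miR-26 gave the single highest score on the gene, upstream of the miR-30 place. The miR-26a-5p peak at UTR bases 26 to 29 scored 366 in reps 1-4, in place 4 of 5236 miR-26a-5p peaks and in place 39 of all 103963 CDS and UTR peaks. Its counterpart in reps 5-7 scored 17 at bases 13 to 29, in place 4 of 195. miR-26b-5p, with the same seed, scored 67 at bases 12 to 29 in reps 1-4 (place 2 of 332) and had no peak on Slc1a2 in reps 5-7. A second miR-26a-5p peak, at bases 445 to 455, scored 112 in reps 1-4 and 6 in reps 5-7. By seed group, miR-26 made up 5.09% of the CDS and UTR peaks of Slc1a2 and 11.2% of their score in reps 1-4, beside 5.36% and 6.47% over the other genes.

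miR-9 was the other leading miRNA, with high scores in the UTR and in the coding sequence. In the UTR, miR-9-5p scored 130 at bases 178 to 192 in reps 1-4 and 5 in reps 5-7, and miR-9-3p scored 138 at bases 192 to 201 in reps 1-4 (place 3 of 1317). Peaks of the opposite arms of the hairpin thus met at base 192. In reps 5-7 miR-9-3p had no peak at this place but 1 with a score of 8 near the end of the UTR, at bases 9080 to 9096, where reps 1-4 had one of 25.

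The highest coding peak of the gene was of miR-9-5p. It scored 349 in reps 1-4 (chr2:102736004-102736012, place 6 of 10418 miR-9-5p peaks) and 13 in reps 5-7. Another, at chr2:102777506-102777515, scored 124 and 8 in turn, and 1 more, at chr2:102743809-102743829 in reps 5-7, scored 45 and 3. These were 3 of the 4 coding peaks in reps 5-7. In reps 1-4 miR-9-5p had 11 of the 98 coding peaks and 596 of their score of 1352, or 44.1%. The 10 annotated coding stretches with peaks held between 2 and 18 peaks each, and miR-9-5p had the highest score in 3 of them. In the others the leading small RNAs included miR-124-3p (40), miR-22-3p (39), miR-9-3p (38) and miR-29a-3p (22).

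The rest of the 3' UTR was covered along its whole length in reps 1-4. Cut into 19 stretches of 500 bases (the last one shorter), it held between 3 and 74 peaks in each, with a median of 17 and none empty, whereas 6 of the 19 had a reps 5-7 peak. The final 250 bases stood out from their surroundings with 35 peaks and a summed score of 474. They were led by a miR-128-3p peak of 46 and held 3 reps 5-7 peaks, of miR-9-3p (8), miR-128-3p (7) and miR-145a-5p (4). The miR-145a-5p peak, at bases 9120 to 9131, was the only CDS or UTR peak of that miRNA in reps 5-7, and the overlapping reps 1-4 peak scored 8. High single peaks between the ends included miR-218-5p at bases 8388 to 8405 (54), miR-124-3p at bases 633 to 636 (54) and miR-125b-5p at bases 7361 to 7370 (52), and none of these was found in reps 5-7.

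Overlapping peaks of different small RNAs formed common sites. Merging peaks that overlap by at least 1 base gave 292 sites in reps 1-4, of which 204 held 1 peak and 34 held 5 or more. The largest ran from the end of the coding sequence into the UTR (chr2:102781491-102781786, 296 bases), with 61 peaks of 42 small RNAs and a summed score of 2166. It also held 13 of the 27 reps 5-7 peaks, with a score of 96. The next largest, at UTR bases 433 to 576, had 26 peaks with a score of 358. In the coding sequence the leading site was chr2:102735951-102736016, where 14 small RNAs had 14 peaks with a summed score of 526.

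Intron peaks were many and low. The 205 in reps 1-4 had scores of 3 to 22 with a median of 4, and 136 of them (66.3%) were in the first intron. That intron is the longest, with 47056 bases, and held 2.89 peaks per kilobase. Shorter introns near the 3' end of the gene held 5.36 and 4.43 per kilobase, and the others held fewer than the first. miR-124-3p, the most abundant neuronal miRNA, had 71 of them (34.6%, 28.5% to 41.4%), beside 37.7% of the intron peaks of other genes. The 1 intron peak of reps 5-7, at chr2:102778959-102778980, was also of miR-124-3p and scored 8, where reps 1-4 had 22. The 11 peaks of the 5' UTR were all in reps 1-4 and scored 3 to 9, with miR-99a-5p (9) and miR-744-5p (7) highest.

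In all, 116 small RNAs had a Slc1a2 peak in reps 1-4, 46 of them with a single one. miR-124-3p had the most (136, or 19%), followed by miR-9-5p (50), miR-125b-5p (49), miR-128-3p (38) and miR-26a-5p (34). After these came miR-29a-3p with 24 and miR-29b-3p with 22. The let-7 members let-7c-5p (18) and let-7f-5p (13) followed, with miR-181a-5p (16) and miR-138-5p (13). In reps 5-7 there were 14 names, all of them also present in reps 1-4. They were miR-124-3p with 5 peaks, miR-9-5p and miR-128-3p with 4 each, miR-26a-5p with 3, miR-153-3p with 2, and let-7f-5p, miR-9-3p, miR-24-3p, miR-145a-5p and the 5 miR-30 names with 1 each.

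Grouped by seed and limited to the CDS and UTRs, the make-up of Slc1a2 was set beside the pooled peaks of the other genes and beside the median of 307 genes with at least 50 such peaks. miR-124-3p had 12.7% (10.1% to 15.9%) of the Slc1a2 peaks in reps 1-4, beside 21.2% over the other genes, and 14.2% of the score, beside 28.9%. The median gene had 18% of its peaks from miR-124-3p, and Slc1a2 was in place 261 of 307, counted from the highest. In reps 5-7 it had 4 of 26 peaks (15.4%, 6.15% to 33.5%), beside 34.3%. miR-29 had 6.26% (4.47% to 8.71%) of peaks beside 9.34% over the other genes, but the median gene, at 8.06%, lay inside the interval (place 198). miR-9-5p had 6.85% (4.97% to 9.38%) of peaks beside 10%, with the median gene at 7.35% (place 175), and 14.4% of the score beside 11.6%, with the median gene at 7.06% (place 58).

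miR-125a/b-5p had 7.63% (5.63% to 10.3%) beside 4.5%, with the median gene at 4% (place 50), and miR-181 had 3.91% (2.55% to 5.97%) beside 1.5%, with the median gene at 1.52% (place 48). For the let-7 group (11.5%, 9.06% to 14.6%, beside 14.1%), miR-128-3p (4.7%, 3.18% to 6.89%, beside 5.08%) and miR-138-5p (2.35%, 1.35% to 4.06%, beside 2.11%), the share of the other genes lay inside the Slc1a2 interval. For the seed group of miR-30a, c and e, which also takes in miR-384-5p, the share of peaks was 2.94% beside 2.51% and the share of score 11.6% beside 2.09%. The median gene had 1.56% of peaks (place 107 for Slc1a2) and 0.58% of score (place 14).

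**Figure D3:**
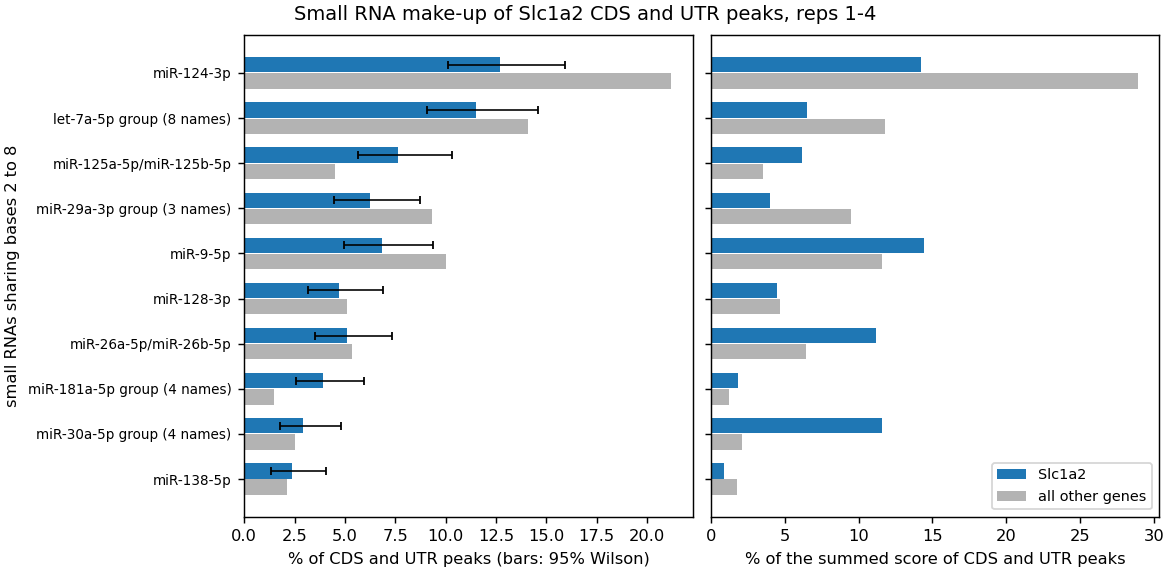
Share of the CDS and UTR peaks (left, with 95% Wilson intervals) and of their summed score (right) that each of the 10 leading seed groups held on Slc1a2 and on all other genes in reps 1-4. The Slc1a2 bar is shorter for miR-124-3p (12.7% against 21.2% of peaks), and the miR-30a group is close by peaks (2.94% against 2.51%) and apart by score (11.6% against 2.09%).

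The 2 forebrain lists were also compared peak by peak. Of the 27 reps 5-7 peaks, 24 (88.9%, 71.9% to 96.1%) had a reps 1-4 peak of their own small RNA over them, beside 91.6% of the 2357 CDS and UTR peaks of other genes. The 27 take in 1 intron peak, which had such a counterpart, whereas the peaks of other genes leave introns out. With at least 50% overlap both ways the count was 11 of 27 (40.7%, 24.5% to 59.3%), beside 54.6%. The 3 without a counterpart were of miR-124-3p at bases 102 to 117 (5) and 7629 to 7638 (3) and of miR-153-3p at bases 6799 to 6815 (4). Read the other way, 25 of the 716 reps 1-4 peaks had a counterpart in reps 5-7, among them 8 of the 10 with the highest score. Their median reps 1-4 score was 45, beside 5 for the 691 others. Over the 24 matched peaks the scores had a Spearman correlation of 0.73, a description of points that share their genes' sites and the depth of 2 lists.

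The excitatory list held no Slc1a2 peak. Of the 20 genes with at least 10 peaks in reps 5-7, 9 (45%) had an excitatory share of peaks less than 0.5 times their reps 5-7 share, Slc1a2 among them, and 2 (10%) had no excitatory peak, Slc1a2 with 27 reps 5-7 peaks and the nuclear non-coding RNA Malat1 with 25. The other genes under 0.5 times were the mitochondrial mt-Rnr2, mt-Nd1, mt-Nd2, mt-Nd4 and mt-Nd5, the non-coding 1700020I14Rik, and Syt1, a calcium sensor of synaptic vesicles (15 and 1 peaks). Most of the 20 genes had fewer reps 5-7 peaks than Slc1a2. All 20 were chosen for many reps 5-7 peaks, and that choice by itself favours a lower excitatory share. Genes with fewer did not enter, such as Ddn, with 6 reps 5-7 peaks and 7 excitatory peaks. Camk2a went the other way, with 24 reps 5-7 peaks (0.665%) and 14 excitatory peaks (1.83%). So did Map2, with 17 (0.471%) and 11 (1.44%). Sptbn1, Ids, Ank2 and Camk2n1 also had a higher excitatory share, with overlapping intervals. Depth, antibody and the cells that carry the tag all differ between these lists, and their part in the absence was not tested. In bulk samples fewer cells of a type and less RNA per cell cannot be told apart.

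**Figure D4:**
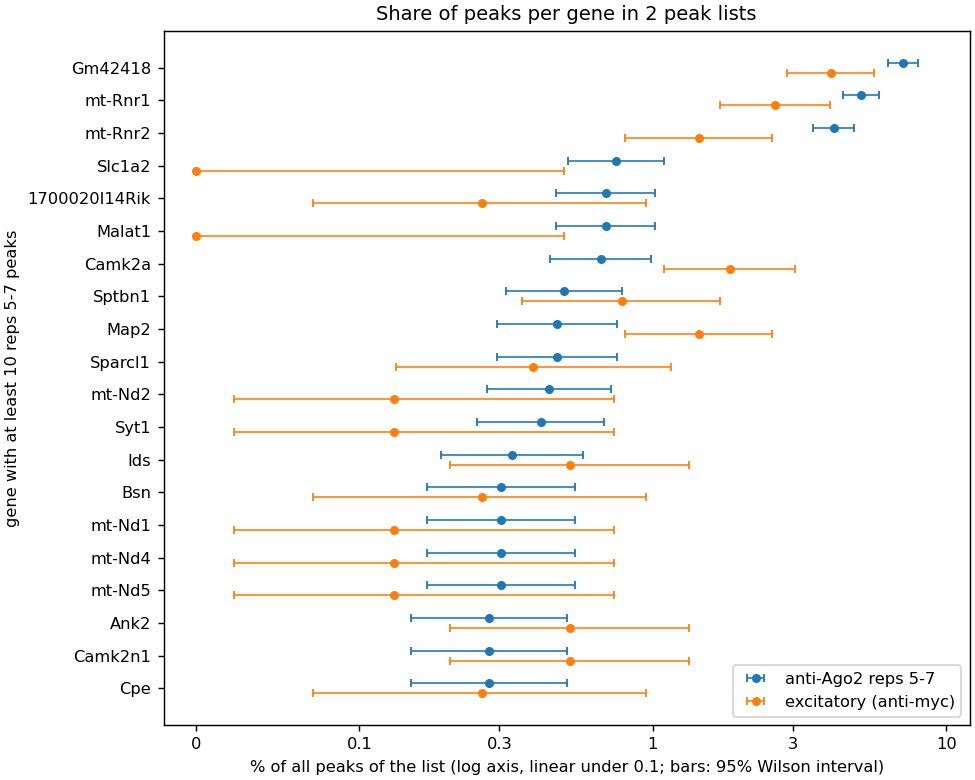
Share of all peaks of the reps 5-7 list (blue) and of the excitatory list (orange) for the 20 genes with at least 10 reps 5-7 peaks, on a log axis that is linear under 0.1%, with 95% Wilson intervals. Slc1a2 (0.748% and 0%) and Malat1 are the genes at 0 in the excitatory list. Camk2a (1.83% against 0.665%), Map2, Sptbn1, Ids, Ank2 and Camk2n1 are higher there.

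Other astrocyte markers had a smaller share of the excitatory list than of reps 5-7, but not than of reps 1-4 when all peaks are counted. All 20 genes of the astrocyte list had peaks in reps 1-4, 14 in reps 5-7 and 2 in the excitatory list, Sparcl1 (3 peaks, 17 in reps 5-7) and Cpe (2 and 10). Over all genes, 11352 had a peak in reps 1-4, 1465 in reps 5-7 and 461 in the excitatory list. The peaks of the astrocyte list summed to 1444 (0.587%), 62 (1.72%) and 5 (0.653%) in turn, and its CDS and UTR peaks to 1283 (1.23%), 60 (2.52%) and 5 (0.859%). Glul, the glutamine synthetase of astrocytes, had 161, 8 and 0 peaks. Aldoc, a glycolytic enzyme, had 98, 7 and 0, and Ndrg2 had 81, 4 and 0.

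The 9 markers of excitatory neurons had 855 peaks in reps 1-4 (0.347%), 34 in reps 5-7 (0.942%) and 21 in the excitatory list (2.74%). All 21 were on Camk2a (14, with 24 in reps 5-7), whose promoter drives the Cre, and on Ddn, a postsynaptic protein (7, with 6 in reps 5-7). Rtn1 went from 3 reps 5-7 peaks to 0 and Slc17a7, a vesicular glutamate transporter, from 1 to 0, and the remaining markers had none in either list. The oligodendrocyte list had 0.134% of peaks in reps 1-4, 0.36% in reps 5-7 and 0.522% in the excitatory list, where 4 peaks fell on 1 of its 10 genes. The microglial list had 0.0362%, 0.0554% and 0.131% in turn, the last from a single peak, and the inhibitory neuron list had 0.039%, 0.111% and 0 peaks.

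Among other genes of glutamate transport and recycling, Slc1a2 had more peaks than the remaining transporters of its family together. Slc1a3 (GLAST), the other astrocytic glutamate transporter, had 51 peaks in reps 1-4, 3 in reps 5-7 and 0 in the excitatory list. Slc1a1 (EAAC1), found mainly in neurons, had 14 peaks and the neutral amino acid transporter Slc1a4 had 11, both in reps 1-4 only, and Slc1a5, Slc1a6 and Slc1a7 had none. Of the 25 genes of this list, 21 had a peak in reps 1-4, 11 in reps 5-7 and 2 in the excitatory list, with a median of 26 CDS and UTR peaks per gene in reps 1-4. Over all genes, 11352, 1465 and 461 had a peak in turn. The peaks of this gene list were 0.461% of reps 1-4, 0.803% of reps 5-7 and 0.392% of the excitatory list. Besides Glul, members with many peaks included the sodium pump subunit Atp1b2 (73 in reps 1-4, 2 in reps 5-7), the glial potassium channel Kcnj10 (49 and 3) and the metabotropic glutamate receptor Grm5 (298 and 3). Grm5 had 2 excitatory peaks and the aspartate aminotransferase Got1 had 1. The amount of RNA of each gene was not measured here, and these counts are not set per length.

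Likeness of small RNA make-up to Slc1a2 was measured as Pearson's r over the counts of 327 seed groups on the CDS and UTRs in reps 1-4, across 306 genes with at least 50 such peaks. The closest were the spectrin Sptbn1 (0.959), the cytoskeletal linker Macf1 (0.957), the dendritic microtubule protein Map2 (0.956), the kinesin Kif1b (0.954) and Apc (0.946). They had 327, 175, 282, 150 and 127 such peaks in turn, far above the minimum of 50. The measure was not adjusted for the number of peaks, and small counts can lower r. The median over the 306 genes was 0.857 and the lowest 0.646. Without miR-124-3p the first 4 were Sptbn1 (0.943), Macf1 (0.94), Adcy1 (0.937) and Map2 (0.937).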

How the data were processed

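The deposited files are peak lists with a gene annotation, 1 for each pooled group of libraries, and calling summaries. Per the file headers of those summaries, the authors called peaks on mm10 with miRBase names; mm10 is also in the submitters' processing notes. For the aligner and the peak caller, no name is given in the sources used here. Each peak carries the authors' deposited score, a whole number of unstated definition. Other values of the deposited summaries, such as totals and settings, were read as they stand. The deposited bed lists and annotations held the same peaks.

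Slc1a2 peaks were taken by gene symbol. Starts were converted to count from 1. Peaks matched between lists when they shared strand and small RNA and overlapped by at least 1 base. Mature miRNAs were matched by name to RefSeq (GRCm38.p6), and seeds are bases 2 to 8. Intervals are 95% Wilson intervals, and the limit for a count of 0 is 3 peaks. Reads carry no stated molecular identifiers, so intervals cover counting error only. No test was run, since each list is 1 pooled observation. Scripts (Python 3.11.15, pandas 2.3.3, numpy 2.4.6, scipy 1.17.1) were tested on simulated peaks.

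The gene, the gene lists and the naming rule were chosen with earlier results of these data known. The rule takes the 10 small RNAs and 10 seed groups with the most Slc1a2 peaks in reps 1-4, all small RNAs in reps 5-7, the 10 highest peaks in reps 1-4 and 5 in reps 5-7, up to 6 genes of each list, every Slc1 family member and the 5 genes most alike. Other peaks and genes named were chosen after their values were seen. Some genes that the rule takes are not reported here.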

Additional observations from a re-analysis of the deposited data

How the results depend on the processing

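Of 41 alternatives over 11 results, 33 left the value within its interval or within 1.5 times a count, 8 moved it and 0 reversed it. Some of the 33 could not have come out otherwise. No IgG peak lies on Slc1a2, so leaving out overlaps with IgG could not change its 3' UTR shares. miR-124-3p was alone in its seed group, so merging by seed could not change its share. Keeping CDS and UTR peaks alone changed the Slc1a2 share from 0.291% to 0.492% in reps 1-4 and from 0.748% to 1.09% in reps 5-7, the miR-124-3p share of reps 1-4 peaks from 19% to 12.7%, and the number of merged sites from 292 to 135. The reps 1-4 share was 0.342% among peaks at or above the median score and 0.349% by summed score. The share of reps 5-7 peaks found in reps 1-4 fell from 88.9% to 40.7% with a reciprocal overlap of 50%. The share of 3' UTR peaks in the first 209 bases was 11.5% by number and 39.2% by summed score. That alternative, and those at or above the median score (12.2%) and without miR-30 (10.2%), were chosen after seeing the data. The excitatory share was 0 in every alternative run, as it had to be, because that list holds no Slc1a2 peak. No paired analysis was possible because each list pools its libraries and no test was run; for the same reason no replicate could be left out. The share of peaks with a seed match was not run because no genome of the build was used here, nor was the recurrence of excitatory Slc1a2 peaks, of which there were 0. Precision is limited by the size of the lists, 3611 peaks in reps 5-7, 766 in the excitatory list and 10 in IgG.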
